A study of Homo sapiens with 6 samples.

Results

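The RNA levels of 10 surface antigen genes of T cells, CD2, CD5, CD6, CD7, CD28, CD38, CD44, CD69, CD99 and PTPRC, were followed in a T-cell leukaemia line after knockdown of Aurora B. The genes were taken by their symbols from the deposited table of 50868 genes, and all 10 were among the 14818 genes with enough reads to be tested. CUTLL1 is a human cell line grown from a T-cell acute lymphoblastic leukaemia. Both arms received a lentiviral short hairpin RNA and puromycin selection, and RNA was sequenced at 48 h. The shAURKB arm carried a hairpin against AURKB, the mitotic kinase Aurora B, and the shGFP arm carried the control hairpin, with 3 libraries each, described as biological replicates. The series title places the experiment in a study of Aurora B and MYC in T-cell leukaemia. The number of AURKB hairpins used was not given in the sources used here, and all libraries come from 1 cell line.

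These antigens are the proteins by which T cells and T-cell leukaemias are recognised in flow cytometry. CD2 and CD28 bind ligands on neighbouring cells and costimulate the T-cell receptor, while CD5 and CD6 are scavenger-receptor proteins that tune its signal. CD7 is among the earliest antigens of the T lineage. PTPRC encodes CD45, the membrane phosphatase that acts on the Src-family kinases LCK and FYN. CD38 is an enzyme that consumes NAD, CD44 is the receptor for hyaluronan, CD69 retains lymphocytes in tissue by removing S1PR1 from the surface, and CD99 is an adhesion protein abundant on immature T cells. The measurements are of RNA summed over each gene. They do not separate the splice forms of PTPRC or CD44 and say nothing of protein on the surface.

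Libraries held 10154187 to 11922979 counts. AURKB fell to 39.3% of the control level (log2 fold change -1.35 ± 0.08 SE, edgeR quasi-likelihood test, adjusted p = 2.54e-04, n = 3 and 3). The libraries carried T-lineage RNA. Of 20 markers of T cells and thymocytes, CD2, CD5 and CD7 of the antigen set among them, 18 were tested. All 20 summed to 4295 to 4381 CPM, that is counts scaled to library size, in the shGFP libraries. In the shAURKB libraries they summed to 3724 to 4030 CPM. The highest was TCF7, at a mean of 796.0 CPM. Of 8 B-lineage markers, MS4A1, PAX5 and EBF1 were at 0 in every library, and the list summed to 22.2 to 28.4 CPM, most of it CD79A. The 9 myeloid markers summed to at most 1.09 CPM. Of 13 markers of fibroblasts, epithelium and endothelium, PECAM1 was at 193.7 to 212.1 CPM in every library, and with it the list summed to 220.9 CPM in shGFP replicate 1 and to 195.6 to 213.3 CPM in the others. Without PECAM1, left out after its level was seen, the other 12 summed to 27.2 CPM in shGFP replicate 1, led by COL1A2 at 17.8, KRT18 at 3.74 and KRT8 at 3.17, against at most 1.29 in any other library. COL3A1, DCN, LUM, VWF and CDH5 were at 0 throughout.

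Of the 10 antigen genes, 1 passed the test as lower after knockdown, PTPRC, and 1 as higher, CD2. The arms did not overlap in CPM for these same genes and overlapped for the remaining 8. Over all tested genes, 23.3% passed at an adjusted p of 0.05, with 10.9% lower and 12.5% higher, and 42.6% had arms that did not overlap, with 20.9% lower and 21.7% higher. Among genes with a log2 CPM of 4 or more, which include all 10, 30.6% passed. The share of antigen genes that passed was therefore near the background. Their median absolute log2 fold change was 0.15, against 0.21 over all tested genes, and their median log2 fold change was 0.05, against -0.00. With shGFP replicate 1 left out, PTPRC remained lower and no antigen gene passed as higher, where 15.4% of all genes passed in either direction.

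The start regions of the 2 genes that passed are shown for comparison, each from 250 bases before to 50 bases after the RefSeq start of GRCh38.p14. Capitals mark matches, on either strand, to short motifs of factors active in T cells. The letters searched were CACGTG for the E-box bound by MYC, then TGGGAA for the NOTCH partner RBPJ, then TGTGGT for the RUNX family, then AGATAA for the GATA family and finally GGAAGT for the ETS family. The CD2 region is chr1:116754180-116754479 and the PTPRC region chr1:198638790-198639089, both on the plus strand.
CD2: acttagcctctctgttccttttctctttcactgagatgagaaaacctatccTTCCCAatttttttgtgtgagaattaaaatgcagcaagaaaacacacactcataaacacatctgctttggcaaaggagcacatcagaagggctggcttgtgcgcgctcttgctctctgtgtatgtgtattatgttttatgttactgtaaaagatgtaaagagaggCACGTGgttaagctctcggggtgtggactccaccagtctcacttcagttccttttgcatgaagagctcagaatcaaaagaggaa
PTPRC: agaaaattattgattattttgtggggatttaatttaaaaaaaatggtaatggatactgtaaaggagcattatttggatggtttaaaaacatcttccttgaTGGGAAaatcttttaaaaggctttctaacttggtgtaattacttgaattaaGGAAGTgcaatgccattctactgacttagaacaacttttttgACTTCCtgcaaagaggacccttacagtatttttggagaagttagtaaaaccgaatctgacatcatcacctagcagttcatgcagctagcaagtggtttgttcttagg
The CD2 window held an E-box that starts 34 bases before the gene start, and RBPJ letters on the minus strand at 199 bases before it. The PTPRC window held RBPJ letters at 150 bases before the start and ETS letters at 99 bases before it on the plus strand and at 57 bases before it on the minus strand. Among all 34961 promoters of that table, 7.27% held the E-box, 24.0% the RBPJ letters, 13.1% the RUNX, 10.3% the GATA and 22.8% the ETS letters, and RBPJ and ETS matches can share bases. The E-box was in the CD2 window and in none of the other 5 that matched, CD28, CD38, CD44, CD99 and PTPRC. CD28 held RBPJ and RUNX letters, CD38 held RBPJ letters, CD44 held ETS letters and CD99 held none of the 5. CD5, CD6, CD7 and CD69 had no entry. The RefSeq start of PTPRC lies 369 bases downstream of the gene start in the deposited table, and that of CD2 45 bases downstream. A match is a string of letters, and binding was not measured.

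PTPRC (ENSG00000081237, GRCh38 chromosome 1, 198638671 to 198757283, plus strand) fell. Its level was 489.7, 527.7 and 542.6 CPM in the shGFP libraries and 401.5, 374.7 and 399.9 CPM in the shAURKB libraries. Every knockdown library lay below every control library, and the means were 520.0 ± 27.3 and 392.0 ± 14.99 CPM (SD, n = 3 each). The log2 fold change was -0.41 ± 0.05 (SE, 95% interval -0.52 to -0.29), which left 75.4% of the control level (edgeR, adjusted p = 0.0022). The fall passed under all 16 alternative settings, with log2 fold changes of -0.46 to -0.37 and adjusted p of 3.97e-07 to 0.0146. In such bulk RNA, fewer cells that carry a transcript and less of it per cell cannot be told apart.

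CD2 (ENSG00000116824, chromosome 1, 116754385 to 116769228, plus strand) rose by a small amount. The shGFP libraries held 107.9, 116.7 and 114.6 CPM and the shAURKB libraries 130.7, 130.3 and 123.6 CPM. All knockdown libraries lay above all control libraries, with means of 113.0 ± 4.60 and 128.2 ± 4.02 CPM (SD, n = 3 each). The log2 fold change was 0.18 ± 0.05 (SE, 95% interval 0.06 to 0.30), a 1.13-fold difference (edgeR, adjusted p = 0.0407). This result lies close to the threshold: it passed under 3 of 16 alternative settings, with adjusted p from 0.0368 to 0.143, and it was lost with any 1 of the 6 libraries left out. Its sign was the same in all 16.

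**Figure D1:**
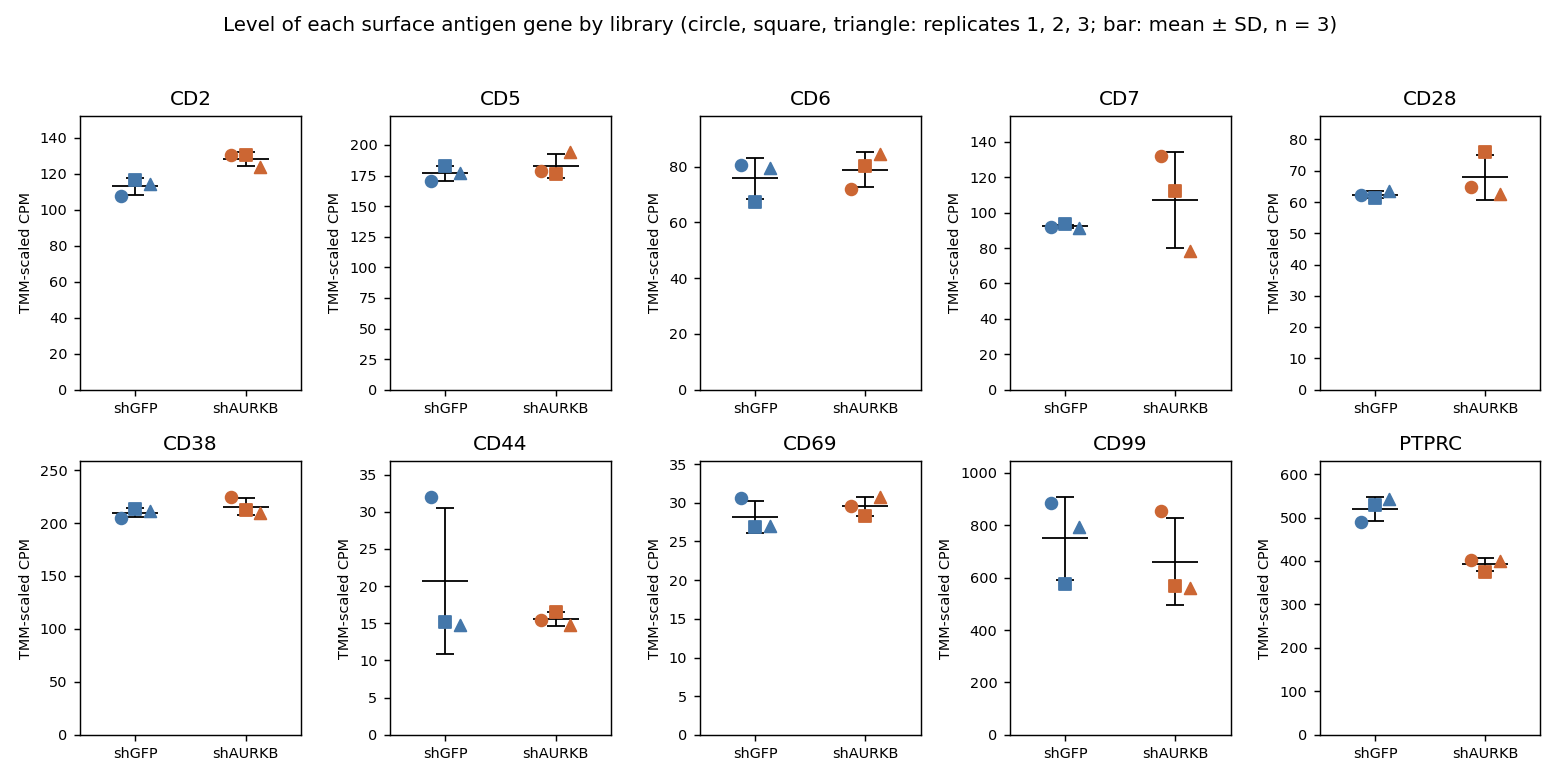
Level of each of the 10 genes in CPM scaled by trimmed mean of M values (vertical axes, from 0) in the 3 shGFP and 3 shAURKB libraries; symbols mark replicates 1, 2 and 3, and bars the mean ± SD. Arms are apart for CD2 and PTPRC, shGFP replicate 1 stands high for CD44 at 31.99 CPM, and CD99 varies 1.53-fold within each arm.

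In 5 genes the 2 arms were close and the 95% interval of the log2 fold change reached no further from 0 than 0.31. These were the signal modulators CD5 and CD6, the costimulatory receptor CD28, the enzyme CD38 and the activation antigen CD69. None of them passed the test in any of the 16 alternative settings. Differences within those intervals are not excluded by these 3 libraries per arm.

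CD5 (ENSG00000110448, chromosome 11, 61102395 to 61127852, plus strand) was at 170.7, 182.6 and 177.2 CPM with shGFP and at 178.5, 175.9 and 194.4 CPM with shAURKB. The arms overlapped, with a log2 fold change of 0.05 ± 0.05 (SE, 95% interval -0.07 to 0.17, edgeR adjusted p = 0.537). The estimate was negative in 4 of 16 alternatives, among them upper-quartile scaling at -0.01, so no direction can be given. CD6 (ENSG00000013725, chromosome 11, 60971680 to 61020377, plus strand) lies 82.0 kb from CD5 and binds ALCAM. Its libraries read 80.6, 67.2 and 79.5 CPM with shGFP and 72.0, 80.3 and 84.5 CPM with shAURKB. The CD6 arms overlapped over most of their range (log2 fold change 0.06 ± 0.09, 95% interval -0.16 to 0.28, edgeR adjusted p = 0.691), and the estimate was -0.02 without shGFP replicate 2.

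CD28 (ENSG00000178562, chromosome 2, 203706475 to 203738912, plus strand) read 62.3, 61.2 and 63.5 CPM with shGFP and 65.0, 76.1 and 62.7 CPM with shAURKB. The control libraries lay close together and shAURKB replicate 2 stood above the other 5. Its log2 fold change was 0.12 ± 0.08 (95% interval -0.07 to 0.31, edgeR adjusted p = 0.313). CD38 (ENSG00000004468, chromosome 4, 15778275 to 15853230, plus strand) read 204.7, 213.0 and 210.9 CPM with shGFP and 224.6, 212.0 and 209.8 CPM with shAURKB. The arms overlapped, with a log2 fold change of 0.04 ± 0.04 (95% interval -0.06 to 0.14, edgeR adjusted p = 0.523). The CD38 estimate was negative in 4 of 16 alternatives, among them upper-quartile scaling at -0.01. CD69 (ENSG00000110848, chromosome 12, 9752486 to 9760901, minus strand) read 30.6, 26.9 and 27.0 CPM with shGFP and 29.6, 28.3 and 30.7 CPM with shAURKB. The highest control library lay inside the range of the knockdown libraries (log2 fold change 0.07 ± 0.08, 95% interval -0.12 to 0.26, edgeR adjusted p = 0.574).

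In the other 3 genes, CD7, CD44 and CD99, fitted variation between replicates lay at percentiles 92.7, 96.6 and 97.7 among genes within 0.5 of their log2 CPM. For these the estimate depended on which library was included. With 1 library left out, 15.0% to 15.7% of all tested genes passed. Their 95% intervals were the widest of the set, and that of CD44 reached beyond 2-fold.

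CD7 (ENSG00000173762, chromosome 17, 82314868 to 82317602, minus strand) was at 92.1, 93.4 and 91.4 CPM with shGFP and at 131.7, 112.0 and 78.2 CPM with shAURKB. The control libraries were nearly equal, and the knockdown libraries lay on both sides of them. The coefficient of variation was 1.08% among controls and 25.2% among knockdown libraries, where counting error alone gives 3.14% and 2.94%. The log2 fold change was 0.22 ± 0.17 (95% interval -0.18 to 0.62, edgeR adjusted p = 0.396). Without shAURKB replicate 3 it was 0.41 and passed the test (adjusted p = 0.0252), and without shAURKB replicate 1 it was 0.05 (adjusted p = 0.858).

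CD44 (ENSG00000026508, chromosome 11, 35138870 to 35232402, plus strand) was at 31.99, 15.2 and 14.7 CPM with shGFP and at 15.4, 16.6 and 14.8 CPM with shAURKB. Only shGFP replicate 1 stood apart, with 339 counts against 156 to 178 in the other 5 libraries. The log2 fold change was -0.40 ± 0.30 (95% interval -1.11 to 0.31, edgeR adjusted p = 0.376), and without that library it was 0.06 (adjusted p = 0.731). This is the library in which COL1A2 was at 17.8 CPM and the 12 fibroblast, epithelial and endothelial markers other than PECAM1 summed to 27.2 CPM, with VWF and CDH5 at 0, and their part in the CD44 value was not tested.

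CD99 (ENSG00000002586, chromosome X, 2691179 to 2741309, plus strand), in the region shared by the X and Y chromosomes, was at 882.6, 575.0 and 791.2 CPM with shGFP and at 852.6, 569.5 and 558.5 CPM with shAURKB. Each arm held at least 1 library at 575.0 CPM or less and 1 at 791.2 CPM or more. The highest library exceeded the lowest 1.53-fold in each arm, and the coefficients of variation of 21.1% and 25.3% compare with counting errors of 1.1% and 1.18%. The log2 fold change was -0.18 ± 0.21 (95% interval -0.67 to 0.31, edgeR adjusted p = 0.565), and it ran from -0.41 without shAURKB replicate 1 to -0.05 without shGFP replicate 1. CD99P1, its pseudogene, had 248, 253 and 245 counts with shGFP and 203, 184 and 205 with shAURKB (log2 fold change -0.30 ± 0.10, edgeR adjusted p = 0.062), and did not show the pattern of CD99 across libraries. How reads shared by both were assigned was not given in the sources used here.

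**Figure D2:**
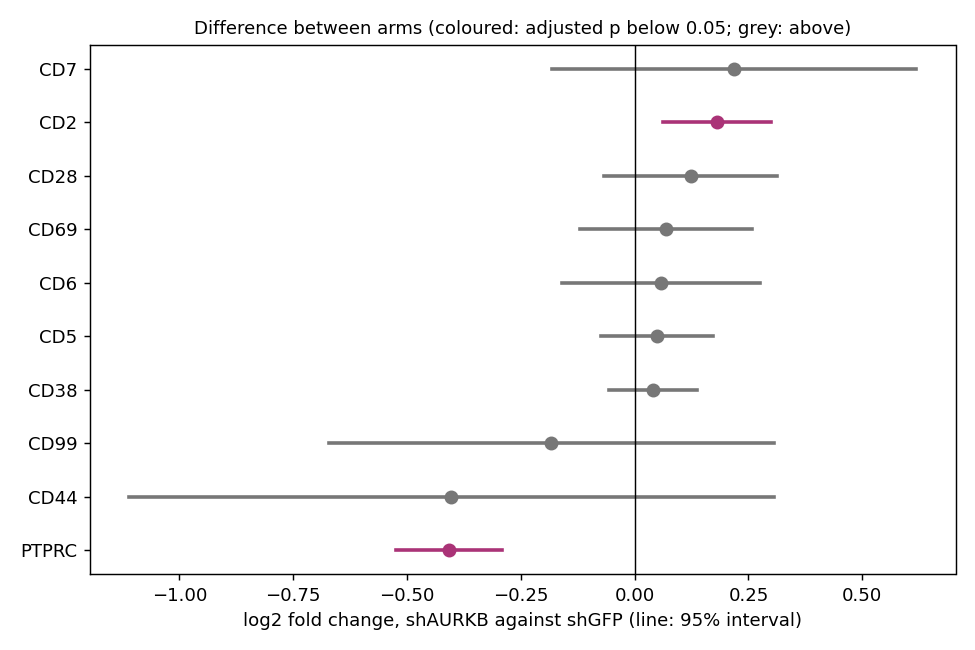
Log2 fold change of each gene, shAURKB against shGFP (horizontal axis), with its 95% interval, ordered by the estimate; colour marks an adjusted p below 0.05. PTPRC at -0.41 and CD2 at 0.18 are coloured, and the intervals of CD44, CD99 and CD7 are the widest.

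**Figure D3:**
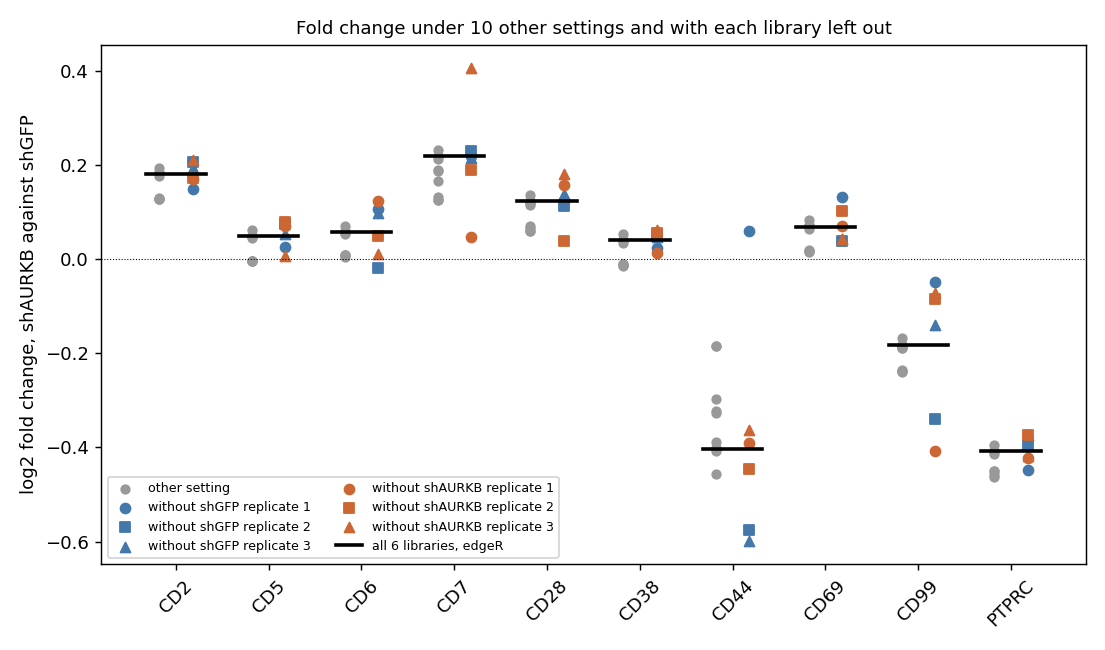
Log2 fold change of each gene (vertical axis) with all 6 libraries (black line), under 10 other settings (grey) and with 1 library left out (coloured by arm, shaped by replicate). PTPRC stays between -0.46 and -0.37, while CD44 moves to 0.06 without shGFP replicate 1 and CD7 to 0.41 without shAURKB replicate 3.

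Levels were compared between genes per length only. In CPM per kb of the longest annotated coding transcript, the control order was CD99 (580.6), PTPRC (96.5), CD2 (70.3), CD5 (54.9), CD7 (45.7), CD38 (37.0), CD6 (23.3), CD69 (16.8), CD28 (12.95) and CD44 (3.60). No neighbours in this order overlapped in their control libraries. In the shAURKB libraries CD2 (79.7) stood above PTPRC (72.7) without overlap, and CD7 overlapped with CD5 above it and with CD38 below it. All other places were the same.

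On the deposited fragments per length and depth (FPKM) the control order differed. PTPRC (55.3 FPKM), CD2 (55.0 FPKM) and CD5 (53.4 FPKM) overlapped, and CD38 (23.4 FPKM) stood above CD7 (12.5 FPKM). The length implied by FPKM and counts equalled the summed length of all distinct annotated exons, overlapping exons counted each time, within 1 base in 87.3% of 14240 genes and in 7 of the 10. For CD7 that length was 7482 bases, although the gene spans 2735 bases. It exceeded the longest coding transcript 5.02-fold for CD99, 3.71-fold for CD44, 3.7-fold for CD7 and 1.04-fold for CD5. The place of a gene in the order thus depends on the length used, whereas differences between arms of 1 gene do not.

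**Figure D4:**
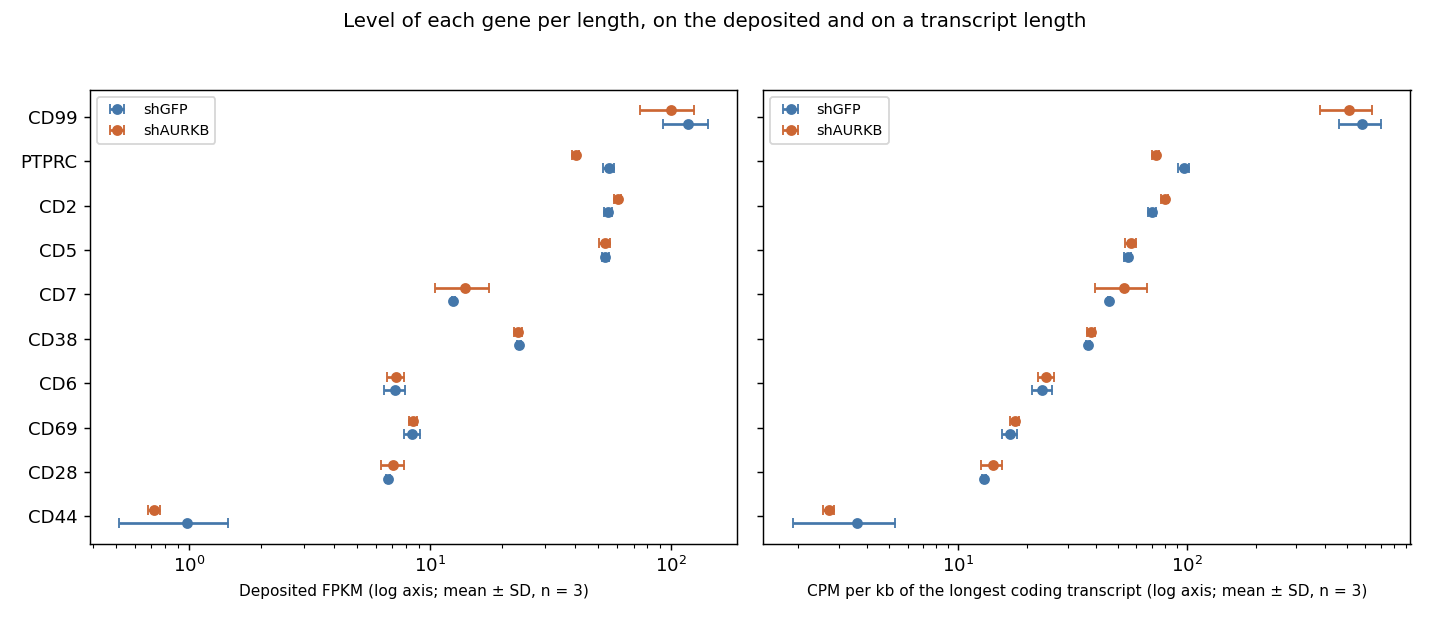
Mean level ± SD (n = 3) of each gene in both arms, as deposited FPKM (left) and as CPM per kb of the longest coding transcript (right), on log axes. CD99 leads and CD44 is last on both scales, while CD7 lies below CD38 on the left and above it in control libraries on the right.

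Among the ligands and counter-receptors of the 10 proteins, 13 of 25 listed genes were tested, and 1 rose and 1 fell, against 23.3% of all tested genes in either direction (medians of log2 fold change: list -0.05, all genes -0.00). S1PR1, the egress receptor that CD69 binds, was at 25.1, 24.2 and 28.5 CPM with shGFP and 16.6, 14.5 and 14.1 CPM with shAURKB. It fell without overlap (log2 fold change -0.78 ± 0.10, adjusted p = 0.00306 by edgeR), while CD69 itself did not pass. CD58, the ligand of CD2, lies 183 kb from it and went from 41.5 to 49.6 CPM (log2 fold change 0.26 ± 0.06, edgeR adjusted p = 0.0238). The CD58 call held in 10 of 16 alternatives and was lost with DESeq2 and with the replicate block. It was also lost without shGFP replicate 1 (edgeR adjusted p = 0.0689), shGFP replicate 2, shAURKB replicate 2 or shAURKB replicate 3. PECAM1, a ligand of CD38, was at 201.5 and 202.8 CPM in the 2 arms (edgeR adjusted p = 0.912).

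Of 31 tested cytoplasmic partners and kinases of the 10 proteins, 11 rose and 6 fell, with a median log2 fold change of 0.00. Over all tested genes 12.5% rose and 10.9% fell, and 30.6% of genes at a log2 CPM of 4 or more passed in either direction. Without shGFP replicate 1 the counts were 10 and 4, where 15.4% of all tested genes passed in either direction. FLNA, the actin cross-linker that binds CD28, rose from 347.2 to 576.6 CPM (log2 fold change 0.73 ± 0.04, edgeR adjusted p = 2.12e-04). SH2D1A, the adaptor SAP of the SLAM receptors, stood at 100.7, 101.8 and 72.4 CPM with shGFP and 263.8, 270.1 and 103.8 CPM with shAURKB. The SH2D1A call (1.22 ± 0.35, edgeR adjusted p = 0.0457) held under 6 of 16 alternatives, and shAURKB replicate 3 was near the controls.

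Among the kinases and regulators on this list that act with CD45, FYN fell from 117.2 to 88.7 CPM (log2 fold change -0.40 ± 0.06, edgeR adjusted p = 0.0051). CSK, which phosphorylates the inhibitory site that CD45 clears, rose with a log2 fold change of 0.21 ± 0.04 (adjusted p = 0.00928 by edgeR), and LCK with one of 0.13 ± 0.03 (adjusted p = 0.0146 by edgeR). The LCK call was lost under 5 of 16 alternatives, among them upper-quartile scaling. PTPRCAP, the small protein that binds CD45, went from 138.7 to 161.4 CPM (0.22 ± 0.05, edgeR adjusted p = 0.0186, called in 10 of 16 alternatives), the opposite sign to PTPRC. Among 7 other receptor-type phosphatases tested, 2 fell and none rose by edgeR, where 10.9% of all tested genes fell. Of the 7, 2 had an unadjusted edgeR p under 0.05, against 37.0% of all tested genes. DESeq2 called 0 of them, against 17.9% of all tested genes. The larger fall was of PTPRJ, or CD148, from 1.65 to 0.396 CPM (-1.998 ± 0.41, edgeR adjusted p = 0.0146). FYN, CSK, LCK and PTPRCAP were named after their values were seen, and the list of cytoplasmic partners held other called regulators: PTPN6 (0.34) and ZAP70 (0.25) were higher, and PTPN22 (-0.36) and PAG1 (-0.18) lower, on the log2 scale.

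Of 30 other leucocyte surface antigens tested, 6 rose and 5 fell (median log2 fold change -0.08), where 12.5% and 10.9% of all tested genes did, and 30.6% of genes at a log2 CPM of 4 or more passed in either direction. Without shGFP replicate 1 the counts were 3 and 3, beside 15.4% of all tested genes in either direction. CD96, an immunoglobulin-family receptor, fell from 127.3 to 88.9 CPM (-0.52 ± 0.07, edgeR adjusted p = 0.00361). CD55, which limits complement, fell from 11.1 to 5.72 CPM (-0.95 ± 0.22, edgeR adjusted p = 0.024). The CD55 call held in 11 of 16 alternatives. Among others, it was lost without shGFP replicate 1, shGFP replicate 2 or shAURKB replicate 1. CD82, a tetraspanin, rose from 87.1 to 124.3 CPM (0.51 ± 0.11, edgeR adjusted p = 0.0201). The CD82 call held in 12 of 16 alternatives and was lost, among others, without shGFP replicate 1 or shGFP replicate 2.

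Of 11 tested integrins 4 fell and 1 rose (median log2 fold change -0.22), where 10.9% of all tested genes fell and 12.5% rose. Without shGFP replicate 1 the counts were 3 and 1, beside 15.4% of all tested genes in either direction. ITGA1, the collagen-binding alpha 1 chain, fell from 73.9 to 34.9 CPM (-1.08 ± 0.06, edgeR adjusted p = 2.12e-04). ITGB7, a chain of the gut-homing integrin, fell from 8.16 to 4.01 CPM (-1.02 ± 0.18, edgeR adjusted p = 0.00879). ITGA2 fell from 7.82 to 4.65 CPM (-0.75 ± 0.21, edgeR adjusted p = 0.0438, called in 7 of 16 alternatives). These 3 were named for a log2 fold change of at least 0.5 in size, so that they exceed PTPRC follows from the selection. The other called integrins, ITGAL (-0.25) and ITGB2 (0.28), had smaller estimates.

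The relatives of CD2 in the SLAM and CD2 families included 7 tested genes, of which 3 fell and 1, CD58, rose (median log2 fold change -0.13; 23.3% of all tested genes passed). SLAMF6 fell from 81.6 to 47.9 CPM (-0.77 ± 0.06, edgeR adjusted p = 6.04e-04) and was called in all 16 alternatives. SLAMF1 (3.60 to 2.13 CPM, -0.75 ± 0.18, adjusted p = 0.0248) and LY9 (11.02 to 7.70 CPM, -0.52 ± 0.12, adjusted p = 0.0256) were called by edgeR, in 4 and 6 of 16 alternatives. Without shGFP replicate 1 only 1 of the 4 calls was left, a fall. The sign of CD2 was opposite to that of these 3 relatives and the same as that of CD58 (0.26). Of the relatives not called, CD84 (0.04) was positive, and CD48 (-0.05) and CD244 (-0.13) were negative.

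Of 14 tested genes of NAD handling around CD38, 2 rose and 2 fell, against 23.3% of all tested genes in either direction. NMRK1, a nicotinamide riboside kinase, fell from 7.65 to 3.86 CPM (-0.99 ± 0.18, edgeR adjusted p = 0.0104), and QPRT, an enzyme of NAD synthesis, from 67.7 to 47.4 CPM (-0.51 ± 0.14, edgeR adjusted p = 0.0412, called in 10 of 16 alternatives). BST1, the relative of CD38 that lies 40.0 kb away, had a log2 fold change of -0.03 ± 0.17 (edgeR adjusted p = 0.924). Among 12 tested genes of CD44 shedding and hyaluronan, 2 fell (10.9% of all tested genes fell), led by SRGN, a proteoglycan ligand of CD44, from 23.9 to 15.1 CPM (-0.66 ± 0.15, edgeR adjusted p = 0.0237). Neither of the 2 passed without shGFP replicate 1.

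The smallest lists had no call by edgeR or DESeq2. Of 3 tested genes of the CD28 family and costimulation, ICOS, PDCD1 and CD274, 0 had an unadjusted edgeR p under 0.05. Over all tested genes 37.0% did. Levels were low for PDCD1 (1.31 CPM with shGFP, 1.44 with shAURKB) and CD274 (1.96 and 1.22 CPM). ICOS, which lies 198 kb from CD28, was lowest in p (-0.13 ± 0.07, edgeR adjusted p = 0.221). CTLA4, 129 kb from CD28, had 0 counts in all libraries. For the scavenger-receptor family of CD5 and CD6, LGALS3BP was the 1 other gene tested (0.12 ± 0.05, edgeR adjusted p = 0.137). Among 4 tested genes listed with CD99, namely CD99L2, CD99P1, PILRA and PILRB, 2 had an unadjusted edgeR p under 0.05. So did 3 of 3 tested neighbours of CD69 in the natural killer gene complex, led by CLEC12A (-0.80 ± 0.25, edgeR adjusted p = 0.0598).

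Within 100 kb of the 10 genes, 23 other genes were tested, and 5 rose and 2 fell, against 23.3% of all tested genes. None near PTPRC or CD2 passed by edgeR, where 1 was tested beside each. Beside CD6, TMEM109 (0.43 ± 0.10, adjusted p = 0.0242) and PRPF19 (0.23 ± 0.05, adjusted p = 0.0134) rose by edgeR. Beside CD7, OGFOD3 (0.35 ± 0.08, adjusted p = 0.025) and TEX19 (0.58 ± 0.13, adjusted p = 0.0199) rose by edgeR, on the log2 scale. FBXL5 near CD38 fell (-0.35 ± 0.08, edgeR adjusted p = 0.0241). Near CD69, RP11-75L1.2 rose (0.46 ± 0.09, edgeR adjusted p = 0.0142) and RP11-705C15.3 fell (-1.64 ± 0.25, edgeR adjusted p = 0.00498). Of the 10 genes, 1 overlapped another gene with any reads, and that gene had 3 counts in all.

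Over the 6 libraries the genes most like PTPRC in log2 CPM, among 9973 protein-coding genes of at least 5 CPM, were PDZD8 (Pearson r = 0.9993), GTF2A1 (0.9977) and ZBED5 (0.9973). For CD2 they were SNRPD3 (0.9962), NDUFC2 (0.9943) and ALG6 (0.9928). An r of 0.95 or more was reached by 381 genes, or 3.82%, for PTPRC and by 159 genes, or 1.59%, for CD2. The 6 points fall into 2 arms, so these values mostly follow the difference between arms and are given as a description.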

How the data were processed

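RNA of 6 CUTLL1 libraries was analysed. The authors deposited 1 table with whole-number gene counts and FPKM. Per the submitters' processing notes, HISAT2 2.0.4, StringTie 1.3.0, edgeR and build GRCh38 were used, with roles, strand setting and treatment of multiply mapped reads not given in the sources used here. The main test was edgeR 4.0.16 (R 4.3.3) on the deposited counts: filterByExpr (minimum count 10, total 15), TMM scaling, quasi-likelihood test with arm as the only term, Benjamini-Hochberg adjustment over 14818 genes, threshold 0.05. CPM values are scaled by TMM, except the marker sums, which use total counts. The p-values set the difference between arms against the variation between these libraries, which was estimated with information shared across genes. The 95% intervals are from the same fit.

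Alternatives were RLE and upper-quartile scaling, no filter, at least 1 CPM in 3 libraries, DESeq2 1.42.0, limma-voom and limma-trend (limma 3.58.1) on log2(FPKM + 1) or log2(FPKM + 0.1) of genes above 0.5 FPKM or of all, a replicate block, and each library left out. Scripts were tested on simulated data. The order of levels was planned on the deposited FPKM, and the transcript length (GENCODE 29) was added after its implied lengths were seen. Gene positions are as deposited, and for 8 of the 10 both start and end are the same in GENCODE 29. Members and lists were chosen with earlier results of these data known. Named are all 10 genes and AURKB. In each of the lists the called genes with a log2 fold change of at least 0.5 and at least 1 CPM are named, at most the 3 largest rises and falls, or with none the smallest p. A result that this rule names is not reported here. Called neighbours and the 3 genes most alike are named too. PECAM1, CD58 and BST1 were named as known partners.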

Additional observations from a re-analysis of the deposited data

How the results depend on the processing

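PTPRC was called lower under all 16 alternatives. The count of antigen genes called higher was 1 with RLE scaling, the 1 CPM filter and limma-voom, and 0 with upper-quartile scaling, no filter on low counts, DESeq2, the replicate block and all 3 FPKM fits. With 1 library left out it ranged from 0 to 1, and the 1 was CD7 without shAURKB replicate 3. Upper-quartile scaling moved the median gene by -0.05 (log2), and CD5 and CD38 changed sign there and in all 3 FPKM fits. The upper-quartile fit split all calls into 1325 higher and 2087 lower, against 1847 and 1609. Over all genes, 914 were called higher by the FPKM fit with no filter, 1027 lower with the replicate block, and 998 to 1056 lower with 1 library left out, where fewer libraries enter. No pairing by replicate number showed over all genes: deviations of same-numbered libraries correlated at -0.09, -0.03 and -0.04, and no library correlated best with its own number. These correlations cannot tell whether same-numbered libraries were prepared together. Of all tested genes, 23.0% passed with upper-quartile scaling, 23.4% with limma-voom, 17.9% with DESeq2 and 15.6% with the block. With the block CD2 had an edgeR adjusted p of 0.09 and PTPRC of 0.0146. CD99, highest in replicate 1 of both arms, had 0.264 with the block and 0.565 without it by edgeR. CD44 has the widest interval of the 10, with 339 counts in shGFP replicate 1 and 156 to 178 in the other libraries.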
